A study of Rattus norvegicus with 6 samples.

Results

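The 11 circular RNAs (circRNAs) described here are all those assigned to the host gene ENSRNOG00000017940 on rat chromosome 5. They were taken by host identifier alone, out of 2228 circRNAs in the main tables, and 8 to 11 of them were listed per library. The host itself was chosen by its measured number of circRNAs and of back-splice reads, both the highest of any host, so its ranks and levels are a description and are not tested. None of the 1052 host identifiers in the files matched the RefSeq table used here. The gene is therefore named by its Ensembl identifier, and no function is given for it.

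Total RNA from the pineal gland of 6 rats of 8 weeks was sequenced, with 1 library per rat, in a study of day against night. The sources conflict on the time of day. By titles and time tags, rats C01, C02 and C03 are night samples (4:00), while rats C04, C05 and C06 are day samples (16:00). The treatment protocol instead gives daylight between 16:00 and 17:00 for the first 3 rats, and darkness with red light between 04:00 and 05:00 for the other 3. The groups (n = 3 each) are therefore named by rat (C01-C03, C04-C06), each difference is that of the former minus the latter, and none is assigned to day or night. All rats were anesthetized before the gland was taken, and the labels name no genotype, strain or sex. The tissue label could not be checked against pineal marker genes, because the identifiers have no symbols and the files hold circRNAs only. Back-splice reads per library ranged from 15506 to 22265, and all read names carry 1 flow cell lane.

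A circRNA forms when the spliceosome joins the end of an exon to the start of an exon that lies upstream of it, or of the same exon, which closes the RNA into a loop. Reads across that back-splice junction identify the circle. Reads that cross the same exon boundaries without being back-spliced come from linear RNA, or from longer circles that contain the boundary. Circles have no free ends, which protects them from exonucleases, and they are known to be abundant in neural tissue. The pineal is the neuroendocrine gland that secretes melatonin at night. It has many cell types, and in whole-gland RNA a change in the number of cells of a type and a change in RNA per cell cannot be told apart.

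The circRNAs of this host were built almost entirely from 2 starts and 5 ends, all on the plus strand, and every pairing of them was found. On this strand the start of a circle is the boundary that receives the back-splice and the end is the boundary that is joined to it. The upstream start lay at 167486001 and the downstream start at 167516581. The ends lay at 167526275, 167547741, 167558250, 167581074 and 167615430, and are called the first to the fifth end here in that order. Together they gave 10 circRNAs.

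From the upstream start, the circRNAs were chr5:167486001-167526275 to the first end, chr5:167486001-167547741 to the second, chr5:167486001-167558250 to the third, chr5:167486001-167581074 to the fourth and chr5:167486001-167615430 to the fifth. From the downstream start they were chr5:167516581-167526275, chr5:167516581-167547741, chr5:167516581-167558250, chr5:167516581-167581074 and chr5:167516581-167615430 in the same order of ends. They spanned between 9695 and 129430 bases of the genome. The remaining circRNA, chr5:167455211-167455676, lay apart, upstream of both starts, and spanned 466 bases (the single-stretch circRNA). The main tables class all 11 as exonic. Coordinates are those of the files, counted from 1. The build is uncertain, since the submitters' processing notes name the mouse build mm9 while the identifiers are rat.

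**Figure D1:**
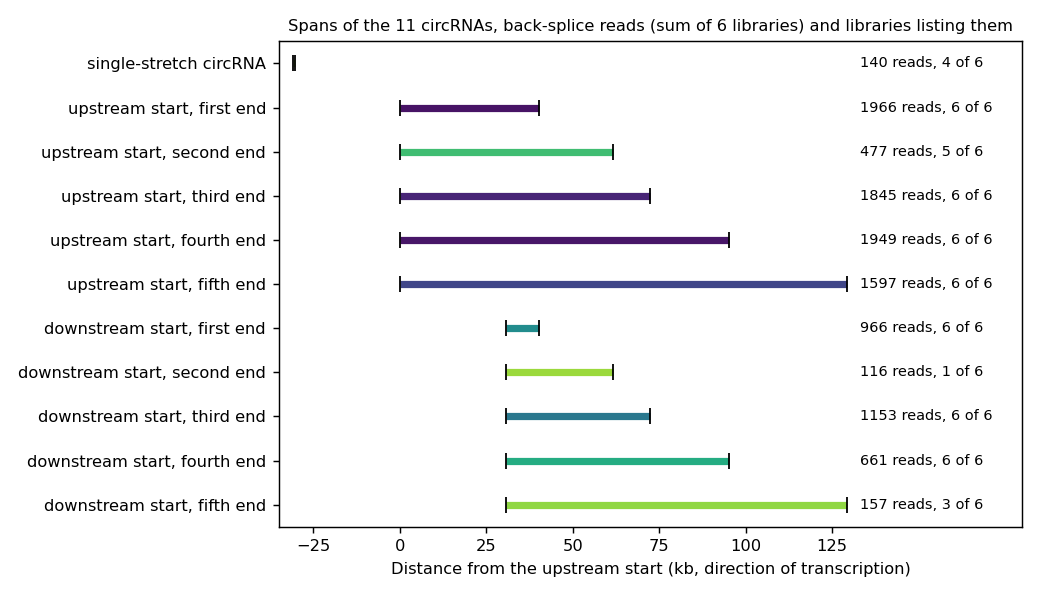
Each line is a circRNA of the host drawn from its start to its end, placed by distance in kb from the upstream start, with darker lines for more back-splice reads over the 6 libraries. The 5 circRNAs from the upstream start held between 477 and 1966 reads each, and the 5 from the downstream start between 116 and 1153.

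The deposited TPM values are scaled by a length for each circRNA, and the length they imply showed how much RNA each circle was taken to hold. This length was the same in every library where it could be worked out. For the upstream start it was 434 bases to the first end, 483 to the second, 708 to the third and 807 to the fourth. The circRNAs from the downstream start were 308, 357, 582 and 681 bases to the same ends, and 762 bases to the fifth. The circle from the upstream start to the fifth end had no TPM value. The single-stretch circRNA had an implied length of 466 bases, equal to its genomic span, so no gap was taken out of it.

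These lengths were additive. Beginning at the upstream instead of the downstream start added 126 bases at each of the 4 ends where both had a length, although the starts lie 30580 bases apart. Moving from the first end to the second added 49 bases from either start, the second to the third 225, and the third to the fourth 99, while the fourth to the fifth added 81 from the downstream start, the one start with a length at both. The second caller, a separate list of back-splice candidates, had a junction ending at 167486126, and the stretch from 167486001 to 167486126 is 126 bases long. It also had a junction starting at 167547693, and the stretch from there to the second end is 49 bases. The circles of this host thus differed in assumed length by whole blocks that the pairing of start and end fixed. The lengths are those used in the deposited table and were not measured from reads inside the circles.

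The host held 2120, 1509 and 1735 back-splice reads in C01-C03 and 1834, 2144 and 1685 in C04-C06. This was the highest total of any host gene in all 6 libraries, where the next host had 462 to 614 reads. Over all libraries its 11027 reads were 9.48% of all back-splice reads. Of the 66 possible entries of 11 circRNAs in 6 libraries, 55 were listed. The 7 circRNAs listed in every library were those from either start to the first, the third and the fourth end and that from the upstream start to the fifth end.

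The circRNA from the upstream start to the first end had 354, 277 and 311 back-splice reads in C01-C03 and 315, 359 and 350 in C04-C06. That to the third end had 361, 259 and 292 reads against 318, 338 and 277. That to the fourth end had 404, 274 and 316 reads against 335, 328 and 292. These 3 circles stood at comparable levels in every library, between the 5th and the 9th place of all circRNAs. The circle from the upstream start to the fifth end followed, with 341, 243 and 245 reads against 247, 267 and 254, at place 9 or 10.

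Circles from the downstream start were lower at every end that both starts could be compared at in every library. To the third end there were 251, 167 and 159 reads in C01-C03 and 177, 218 and 181 in C04-C06. To the first end there were 182, 103 and 178 reads against 170, 194 and 139. To the fourth end there were 113, 105 and 115 reads against 99, 129 and 100. The read counts of the 2 groups overlapped for each of these 7 circRNAs before any scaling.

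Scaled to a fixed total of back-splice reads per library (CPM), the 7 fell into the following order over the 6 rats. The upstream start to the first end had a CPM of 16984 ± 1130 (SD, n = 6) and to the fourth end 16829 ± 1814. The former was higher than the latter in 3 of 6 rats, so these 2 were not separated. At the third end it was 15906 ± 1160, below the fourth in 5 of 6 rats, and the fifth end 13825 ± 1828, below the third in 6 of 6. For the downstream start the values were 9915 ± 1235 to the third end, 8267 ± 1282 to the first and 5746 ± 808 to the fourth, each above the next in 5 of 6 rats. The step from the lowest circle of the upstream start to the highest of the downstream start held in 6 of 6 rats.

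**Figure D2:**
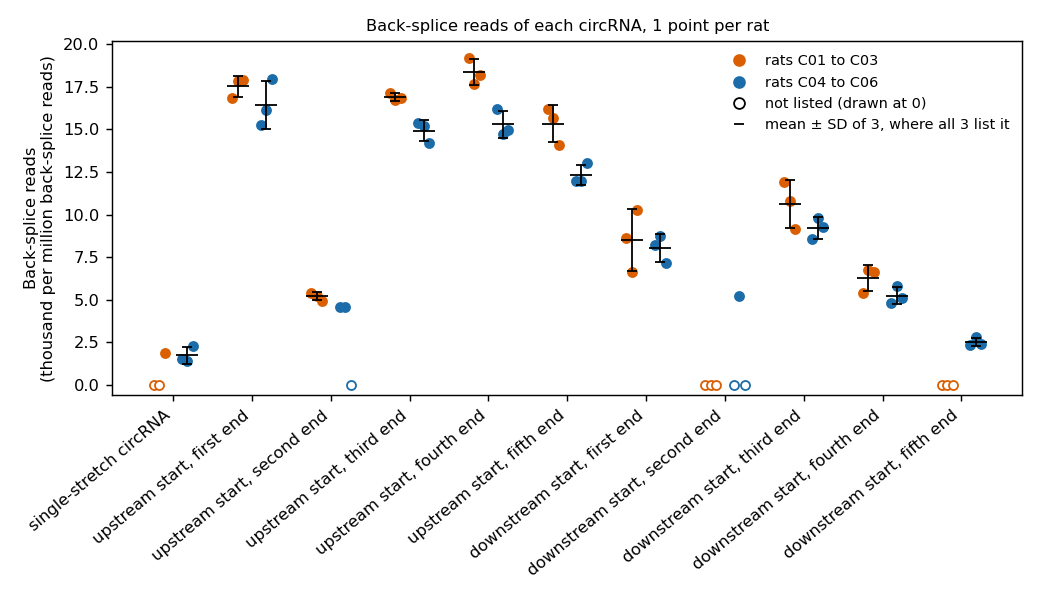
Back-splice reads of each circRNA of the host per library, scaled to CPM by library size alone, 1 point per rat, orange for C01-C03 and blue for C04-C06, with bars for the mean ± SD of 3 and open points at 0 for entries not listed. The circRNAs from the upstream start to the first, the third and the fourth end lie between 14204 and 19203 CPM. The groups overlap at the first end, and C01-C03 lie above C04-C06 on this scale at the third, the fourth and the fifth.

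The upstream start held more reads than the downstream start at the first, the third, the fourth and the fifth end, by a margin that differed between them. It held 72.2% ± 3.28 (SD, n = 6) of the reads of the 10 paired circRNAs, with a range of 66.0 to 75.1%. Entries not listed count as 0 here, and 8 of the 9 such entries begin at the downstream start. The lowest value, 66.0%, was that of C05, which listed all 10. At the third end it held 61.7% ± 2.29, at the first end 67.3% ± 3.90 and at the fourth end 74.5% ± 2.62 of the reads of both starts (n = 6 each). In the 3 libraries that listed both circles at the fifth end it held 83.1% ± 1.71 (n = 3). At the second end, where C05 alone listed both circles, it held 46.8% of the reads, 102 against 116. In the second caller's counts the share was 75.7% ± 2.46 at the third end, 75.0% ± 4.84 at the first and 84.5% ± 3.11 at the fourth. At the second end its share was 76.9% ± 10.2 (n = 6). Of the first, the third and the fourth end, the fourth had the highest mean upstream share in both sets of counts, and the mean was higher in the second caller at each of them.

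Among the ends, the third held 27.5% ± 0.999 of these reads, the first 27.0% ± 1.89, the fourth 24.1% ± 1.32 and the fifth 16.1% ± 1.29 (SD, n = 6 each). The second end was the least used at 5.22% ± 3.27. Its share rests on few listings, since the downstream start to the second end was listed in C05 alone, with 116 reads. The upstream start to the second end had 114, 81 and 86 reads in C01-C03 and 94 and 102 in C04 and C05, and was not listed in C06. The second caller had reads for both circles at this end in all 6 libraries, 182 and 56 in total.

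An entry missing from the main tables is not an absent circle. These tables list a circRNA only where its linear reads are no more than 20 times its back-splice reads, which sets a lowest circular share of 9.09%. Linear reads of the paired circRNAs were additive, a term for the start plus a term for the end, to within 0.9 reads. From these terms the linear reads could be worked out for 7 of the 9 paired entries that were not listed. For the circle from the downstream start to the fifth end, 67, 52 and 56 back-splice reads would have been needed for a listing in C01, C02 and C03. The second caller had 9, 12 and 11 reads for it there, and 12, 27 and 16 in C04-C06, where the main tables listed 48, 62 and 47. For the downstream start to the second end, 131, 98, 104 and 102 reads would have been needed in C01 to C04.

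**Figure D3:**
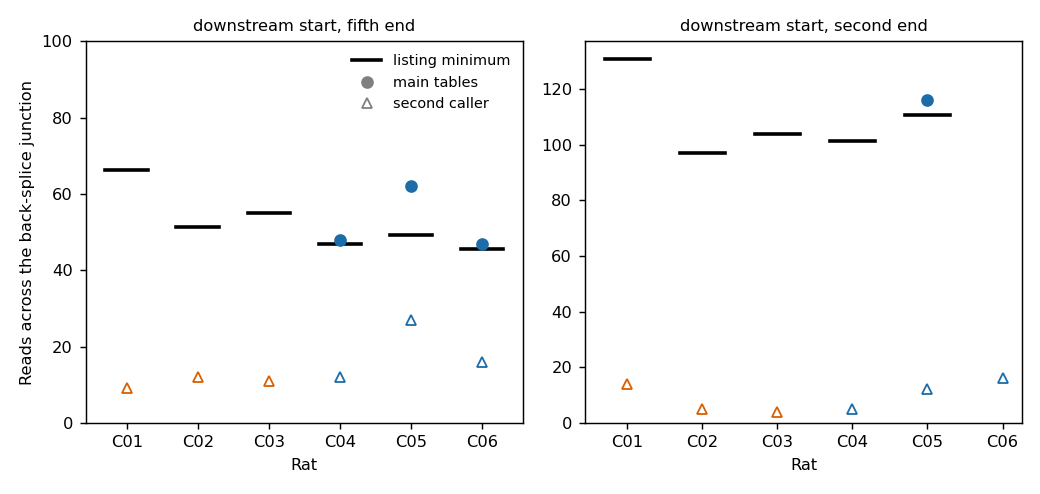
Reads across the junction by rat for the circRNAs from the downstream start to the fifth end (left) and to the second end (right), with filled points for listed reads, open triangles for the second caller and black bars for the least number of reads that would be listed. On the left the main tables list C04, C05 and C06 alone (48, 62 and 47 reads), while the second caller has 9 to 27 reads in all 6 libraries. No bar is drawn for C06 on the right, where linear reads could not be worked out.

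The single-stretch circRNA was likewise not listed in C01 and C02. It had 33 reads in C03 and 31, 31 and 45 in C04-C06, with circular shares of 10.4, 13.0, 12.8 and 18.5%. The second caller had 22, 26 and 28 reads for it in C01-C03 and 13, 25 and 34 in C04-C06. In that count the groups overlapped.

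Whether the circles of this host differed between the groups was first tested on back-splice reads. The host total did not pass, with a log2 difference of 0.09 (SE 0.07, edgeR quasi-likelihood adjusted p = 0.99, n = 3 per group). Over the 473 hosts tested, 1.06% passed. The normalised host level was 159554 ± 12493 CPM in C01-C03 and 150208 ± 6831 CPM in C04-C06 (SD, n = 3 each), and the groups overlapped. The scaling shifts all hosts. The median host stood at -0.11 with the normalization used (TMM) and at 0.00 with library size alone, where this host stood at 0.20 (SE 0.05, edgeR adjusted p = 0.17). Relative to the median host, the difference was thus nearly the same under both.

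Of the 10 circRNAs of the host that could be tested, 1 passed, against 1.55% of the 772 circRNAs tested in all. It was the circle from the downstream start to the fifth end (edgeR adjusted p = 0.0081). This is the circle that the main tables leave out in C01-C03, and no fold is given for it. With its missing entries set to the most reads that the listing rule allows, the log2 difference was 0.28 (edgeR adjusted p = 0.74), in the other direction. In the second caller's counts it was -0.82 (SE 0.45, edgeR adjusted p = 1.0). The call was made in neither of these. The single-stretch circRNA (-1.56, SE 1.47) and that from the upstream start to the second end (0.68, SE 1.02) were tested with missing entries as 0 and did not pass. That from the downstream start to the second end was listed in too few libraries to be tested.

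For the 7 circRNAs listed in every library, log2 differences lay between 0.00 and 0.23, and none passed. In this setting none was under 0.05 unadjusted either, as 9.97% of the 772 were. This depended on the processing. The upstream start to the fourth and the fifth end had edgeR unadjusted p of 0.031 and 0.029 with RLE scaling, where 74 of 772 were under 0.05. With DESeq2 the unadjusted p were 0.045 and 0.025, where 69 of 772 were. With library size alone both had an edgeR unadjusted p of 0.010, and the third end 0.028, where 77 of 772 were. None passed after adjustment in these settings. The circle from the upstream start to the fifth end had 0.23 (SE 0.10, edgeR adjusted p = 0.54), that to the fourth end 0.18 (SE 0.09), that to the third end 0.09 (SE 0.07) and that to the first end 0.00 (SE 0.08). From the downstream start the differences were 0.16 (SE 0.11) at the fourth end, 0.12 (SE 0.14) at the third and 0.00 (SE 0.18) at the first. Normalised levels of the groups overlapped for all 7. With library size alone as the scaling, the groups no longer overlapped for the upstream start to the third, the fourth and the fifth end, higher in C01-C03, as they did for 9.16% of the 273 circRNAs listed in all libraries. Those 3 differences were then 0.15, 0.24 and 0.29, with edgeR adjusted p of 0.31, 0.20 and 0.20.

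As a share of all back-splice reads, the host held 10.1, 9.73 and 9.99% in C01-C03 and 8.87, 9.63 and 8.64% in C04-C06. The lowest of the first group, C02, lay just above the highest of the second, C05. The means were 9.93% ± 0.180 and 9.05% ± 0.518 (SD, n = 3 each), a difference of 0.887 percentage points (p = 0.1 in an exact two-sided permutation test, which cannot go lower with 3 rats against 3). Groups that do not overlap in this direction were seen for 9.77% of the 174 hosts with a read in every library. C01-C03 listed fewer circRNAs (795 to 874) than C04-C06 (946 to 986), and the part of this in the share was not tested. Over circRNAs listed in all libraries the difference was 0.860 points.

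At the 10 junctions of the host that it shares with the main tables, the second caller placed 4.36, 4.02 and 4.15% of its reads in C01-C03 and 3.34, 3.97 and 3.77% in C04-C06. These groups also did not overlap, with a difference of 0.482 points (p = 0.1, exact two-sided permutation test), as for 6.9% of 261 hosts. A further 28 junctions of the second caller inside the host's span, with 315 reads in all, are not counted here. In the deposited TPM values the host held 15.7, 14.4 and 15.6% against 14.0, 14.5 and 12.9%, which overlap (exact permutation p = 0.2). The TPM values follow the mean of both callers' reads over a length, so they are not a separate count. They also leave out the circle from the upstream start to the fifth end. In the edgeR test of the second caller's counts the host had a log2 difference of 0.21 (SE 0.14, adjusted p = 0.95), and 0% of 548 hosts passed, with 5.84% at an unadjusted p under 0.05. DESeq2 called 0 hosts and limma-voom 2, this host among them (0.19, limma-voom adjusted p = 0.016).

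Linear reads across the same boundaries passed their test, while back-splice reads did not pass theirs. Back-splice reads were tested over 772 circRNAs. Linear reads were tested over 273, with their spread estimated mostly from all of them. Over circRNAs listed in every library, the upstream start to the fourth end had a back-splice difference of 0.24 (edgeR unadjusted p = 0.027). The fifth end had 0.29 (edgeR unadjusted p = 0.010). The remaining circles were above 0.05 unadjusted, and none passed after adjustment. How far the unlike tests make this contrast was not tested. All 7 circRNAs listed in every library had more linear reads in C01-C03, and none of their normalised values overlapped between groups. Over the 273 circRNAs tested, 31.9% passed in either direction, 18.7% as higher in C01-C03, and 24.9% had groups that did not overlap with C01-C03 higher. The difference between linear and back-splice reads is tested as the circular share in a later paragraph. The 7 values are not independent, since circles that share a start or an end share linear reads. Linear reads at an inner end, or at the downstream start, can also come from longer circles that contain it.

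From the upstream start, the fitted differences at the third, the fourth and the fifth end were larger than at the first. At the upstream start to the fifth end there were 674, 603 and 482 linear reads in C01-C03 and 442, 433 and 392 in C04-C06, a log2 difference of 0.48 (SE 0.08, edgeR adjusted p = 2.2e-07). The normalised values there were 10056 ± 1508 CPM in C01-C03 and 7220 ± 391 CPM in C04-C06 (SD, n = 3 each). At the fourth end there were 934, 755 and 703 against 609, 628 and 540, a difference of 0.43 (SE 0.07, edgeR adjusted p = 1.7e-08). At the third end there were 1264, 1031 and 994 against 890, 922 and 786, a difference of 0.34 (SE 0.05, edgeR adjusted p = 3.9e-08). In all 3, the counts of C01-C03 lay above those of C04-C06 before scaling. How many of all circRNAs do so without scaling was not worked out, and these 3 share the linear reads of their start.

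At the first end, with the upstream start, there were 1961, 1625 and 1608 linear reads against 1560, 1678 and 1541, and the raw counts overlapped. The difference was 0.12 (SE 0.04, edgeR adjusted p = 0.012). It did not pass with DESeq2 (adjusted p = 0.070) or with edgeR after leaving out C02 (0.12), C04 (0.093) or C05 (0.12). From the downstream start the log2 differences were 0.29 (SE 0.05) at the fourth end, 0.26 (SE 0.04) at the third and 0.12 (SE 0.03) at the first. The last of these had an edgeR adjusted p of 0.0030, and of 0.071 without C04 and 0.065 without C05.

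Within each library, linear reads fell from the first end over the third and the fourth to the fifth. With the upstream start, the linear reads at the fifth end were 34.4, 37.1 and 29.98% of those at the first end in C01-C03, and 28.3, 25.8 and 25.4% in C04-C06. The means were 33.8% ± 3.60 and 26.5% ± 1.58 (SD, n = 3 each), and the groups did not overlap, a difference that was not tested. Taking out the start that they share, the first end had 1022 to 1287 linear reads more than the fifth, the third 394 to 590 more and the fourth 147 to 260 more. Each earlier end lies inside the span of the circles to later ends, and the part of their reads in this fall was not tested.

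The circular share, which counts each back-splice read 2 times against the linear reads at its ends, rose in every library from the first end over the third and the fourth to the fifth for the upstream start. It was 26.5, 25.4 and 27.9% at the first end in C01-C03 and 28.8, 29.97 and 31.2% in C04-C06. At the third end it was 36.4, 33.4 and 37.0% against 41.7, 42.3 and 41.3%, and at the fourth 46.4, 42.1 and 47.3% against 52.4, 51.1 and 52.0%. At the fifth end it reached 50.3, 44.6 and 50.4% against 52.8, 55.2 and 56.4%. C02 had the lowest share of all 6 rats at each of these ends. At the second end the share lay near the listing limit, at 9.64 to 10.9%.

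Circles from the downstream start had lower shares. At the third end the shares were 20.7, 18.7 and 16.5% in C01-C03 and 20.4, 22.8 and 21.8% in C04-C06. The first end had 12.2, 9.14 and 13.8% against 14.2, 14.8 and 11.9%, and the fourth 12.5, 15.1 and 14.8% against 15.2, 17.9 and 15.9%. The value of C02 at the first end was just above the listing limit. The linear reads of the downstream start exceeded those of the upstream start by 424 to 654 reads in each library. The downstream start lies inside the span of every circle from the upstream start. How far reads from inside those circles lower its shares was not tested, and the same holds for the earlier ends.

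The circular share was lower in C01-C03 without overlap for 5 of the 7 circRNAs, the 4 from the upstream start and that from the downstream start to the fourth end. The same held for 22% of the 273 circRNAs tested. In the test across all of them (limma with trend, n = 3 per group) 0 of the 7 passed, against 2.2% of all, with adjusted p between 0.33 and 0.58. None of the 7 was under 0.05 unadjusted, as 20.5% of all were. The test used the log2 ratio of 2 times the back-splice reads to the linear reads, not the share itself. Differences of the 7 in this ratio lay between -0.38 and -0.24 with SE of 0.20 to 0.24. The spread behind these SE is estimated in part from all 273 circRNAs, not from these circles alone. The 0 passing therefore does not show that the groups were alike in this ratio. Whether the 7 differ beyond their own spread between rats was not tested. The median over all 273 was -0.20, and 63.4% lay below 0. The number passing was 0 in the alternatives tried as well.

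**Figure D4:**
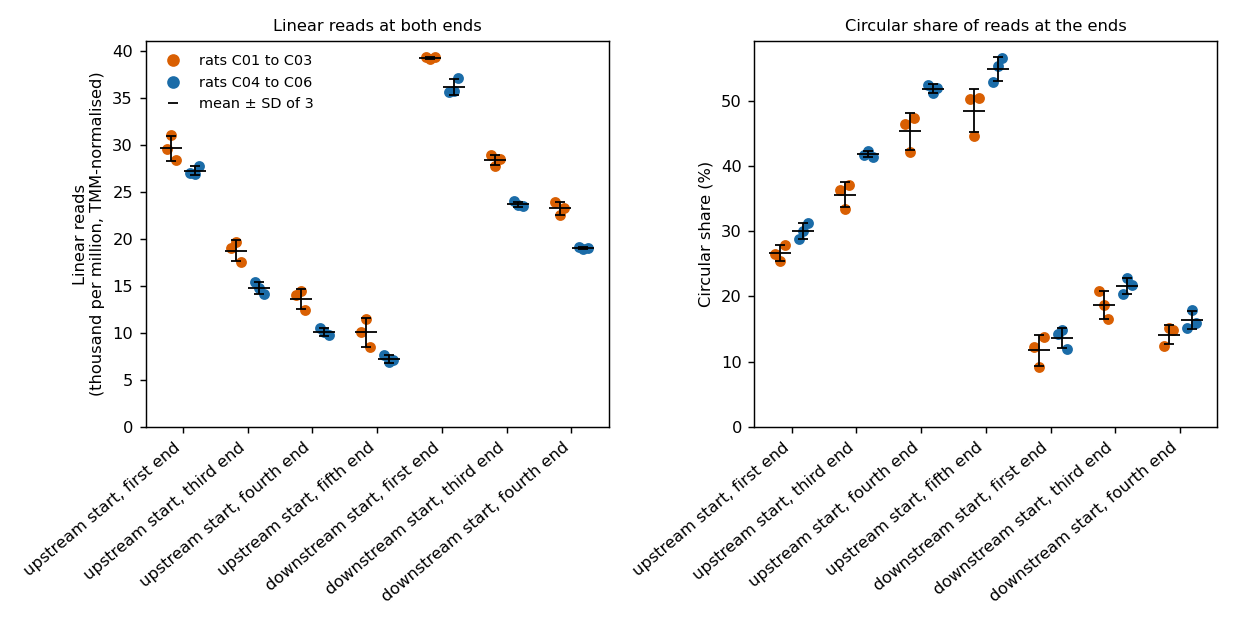
Linear reads (left, TMM-normalised CPM) and circular share in percent (right) of the 7 circRNAs listed in every library, 1 point per rat, orange for C01-C03 and blue for C04-C06, with bars for the mean ± SD of 3. From the upstream start, linear reads fall towards the fifth end and are higher in C01-C03 at every end shown, while the share rises from 25.4 to 31.2% at the first end to 44.6 to 56.4% at the fifth.

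The mix of circles within the host was tested apart from its total. The host had an adjusted p of 0.062 (edgeR diffSpliceDGE), and 4.05% of the 74 hosts with at least 2 tested circRNAs passed. Only the circle from the downstream start to the fifth end passed on its own (adjusted p = 0.0013), against 2.17% of 184 circRNAs. It entered as 0 in C01-C03, where it was not listed. The call was lost with limma-voom (adjusted p = 0.057), and without C03 the single-stretch circRNA passed as well (edgeR diffSpliceDGE adjusted p = 0.027). With only circRNAs listed in all libraries, the host's adjusted p was 0.98. It was 0.0097 without C03 and between 0.98 and 1.0 without C04, C05 or C06. In these last settings, as with circRNAs listed in all libraries, the circle from the downstream start to the fifth end was not tested.

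The second caller gave a separate count of the same junctions. It had 10 of the 11 circRNAs, and the missing circle, from the upstream start to the fifth end, spans 129430 bases, whereas its longest candidate spans 99870 bases. All 104 circRNAs of the main tables above that length were missing from it. At the upstream start its reads were 73.2% ± 19.6 of those in the main tables for the first end, 68.6% ± 17.1 for the third and 66.2% ± 12.1 for the fourth (SD, n = 6). At the downstream start they were 48.9% ± 8.67, 35.8% ± 11.2 and 35.9% ± 9.67. Read names showed that 31.5 to 36.2% of the host's back-splice reads lay within 2500 units of another read of the same circle on a flow cell tile, where copies of a molecule can fall. The other circRNAs had 31.9 to 36.6%. With such reads counted 1 time, the difference in the host's share was 0.861 points. By the second caller's own count of distinct reads, the host stood lower than all candidates together, itself included. Distinct reads were 41.6 to 48.6% of its reads, and 56.2 to 64.6% of the reads of all candidates. Junctions of the host differed in this with their number of reads. In C01 the upstream start to the first end had 100 distinct of 257 reads, and the single-stretch circRNA 17 of 22. The candidates were not matched for reads per junction, and the source of the gap was not tested.

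Each other host with at least 5 circRNAs held at most 2.33% of all back-splice reads. Of the 22 hosts with at least 5 circRNAs, the next in number was ENSRNOG00000004201 on chromosome 7 with 10 circRNAs, which used 8 starts and 7 ends and 17.9% of their possible pairs. It held 0.403% of all back-splice reads, and 2 of its circRNAs were listed in all libraries. Next came ENSRNOG00000020689 on chromosome 1, with 9 circRNAs, 60% of its pairs and 0.270% of the reads. The chromosome 5 host used 61.1% of the pairs of its 3 starts and 6 ends, which 6 of the other 21 hosts exceeded. It had 7 circRNAs in all libraries, and the other hosts at most 4. Of the 22 hosts, 0 passed as higher in C01-C03, against 0.211% of all 473, and 1 as lower, against 0.846%. Their median log2 difference was -0.10 against -0.11 over all 473.

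Likeness between hosts was measured as the distance of their normalised log2 CPM over the 6 libraries, each centred on its own mean. By this measure the closest host was ENSRNOG00000031760 on chromosome 3, with 5 circRNAs and 506, 367, 454, 460, 514 and 415 reads from C01 to C06. Its root mean square distance was 0.045 on the log2 scale. The second closest was ENSRNOG00000054331 on chromosome 14, at 0.059. It had 2 circRNAs and only 53, 38, 41, 47, 50 and 44 reads from C01 to C06. The distance makes no allowance for counting spread at such levels. Both hosts were picked as the closest of 111, and whether they are closer than such a choice would give was not tested. The median over the 111 hosts compared was 0.29. The values of all hosts share each library's depth and scaling.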

How the data were processed

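Main tables, in the column format of the caller CIRI, were deposited per library. Per the file headers they hold counts of back-splice reads, counts of non-junction reads at the same ends (linear reads) and the circular fraction, which equals 2 times the back-splice reads over that plus the linear reads, to within 0.0005. The authors also deposited candidate lists in the format of find_circ with read counts (the second caller) and a series table of 1413 circRNAs in TPM. For caller versions and settings, "not given in the sources used here" applies, and the submitters' processing notes name DESeq and mm9. Listings began at 2 back-splice reads.

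Entries not listed counted as 0. Tests on circRNAs or hosts that reached 2 reads in 3 or more libraries used the quasi-likelihood method of edgeR 4.0.16 with TMM (R 4.3.3), Benjamini-Hochberg adjustment over all tested and a threshold of 0.05. limma 3.58.1 (trend, pseudocount 0.5) was used for the circular share and edgeR for linear reads, both over circRNAs listed in all 6 libraries. The share was tested as the log2 ratio of 2 times the back-splice reads to the linear reads. Alternatives were RLE or library size scaling, DESeq2 1.42.0, limma-voom, other filters, the second caller, TPM values and leaving out each rat. Listing-limit counts, merging of reads within 2500 units on the flow cell and distinct reads were added after the data were seen. The scripts were tested on simulated data. The host, its circRNAs and the tests were chosen with earlier results of these data known. Named were circRNAs listed in all libraries, past a threshold or listed in 1 whole group only, the 5 largest second-caller junctions absent from the main tables, and the 2 hosts most like this one. Cell type markers could not be used. Replicates are separate rats per the labels, and p-values cover the spread between them. Except in the permutation tests, that spread is estimated in part from all circRNAs or hosts tested, not from this host alone. For linear reads it is estimated mostly from all circRNAs tested.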

Additional observations from a re-analysis of the deposited data

Results flagged for a closer look

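In the second caller's lists, 38 junctions on the plus strand lay inside the span of the chromosome 5 host. Of these, 10 were also in the main tables and held 94.7% of the reads, and 28 were seen by the second caller alone, with 315 reads. The 3 junctions below were absent from the main tables and had reads in all 6 libraries, which is a signal outside the main measurement. There are no control samples to set them against.

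The junction chr5:167455211-167486126 had 80 reads, 16, 19 and 13 in C01-C03 against 9, 14 and 9 in C04-C06. It starts where the single-stretch circRNA starts, and its end lies 126 bases into the stretch that begins at the upstream start. The junction chr5:167526171-167581074 had 43 reads, 4, 8 and 7 against 3, 15 and 6, and runs to the fourth end. Its start at 167526171 lies 105 bases before the first end, counting both. The junction chr5:167518801-167558250 had 30 reads, 13, 3 and 2 against 2, 6 and 4, and runs to the third end. No difference between the groups was tested for these junctions.

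The other 2 of the 5 junctions with most reads were not in all libraries. They were chr5:167526171-167558250, with 31 reads in 4 libraries, and chr5:167526171-167615430 with 20 reads in 5.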

How the results depend on the processing

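No paired analysis was possible because the groups share no replicate number in the labels. The host's back-splice difference stayed above 0 in all alternatives. It did not pass except with no filter on low counts (0.10, edgeR adjusted p = 0.0097), and leaving out each rat gave 0.05 to 0.17. In the second caller it passed with limma-voom alone (0.19, adjusted p = 0.016), and leaving out each rat gave 0.15 to 0.30. The number of the host's circRNAs that passed on back-splice reads was 1. With no filter, where 41 of 2228 passed in all, it was 2 (the downstream start to the second and the fifth end). The former of these was listed in C05 alone, so its call rests on 1 library. The number was 0 with circRNAs listed in all libraries and 0 with the second caller's counts. With unlisted entries at the listing limit (added with the data in view) it was 0 as well. Leaving out each rat gave 0 to 2, with 2 without C03 (the single-stretch circRNA joined) and 0 without C04, C05 or C06, where the circle in question was no longer tested. The adjusted p for the mix of circles was 0.0097 to 1.0 on leaving out each rat, with the same circle untested without C04, C05 or C06.

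Of differences near 0, that of the upstream start to the first end ranged from -0.022 (without C04) to 0.092 on leaving out each rat. That of the downstream start to the first end ranged from -0.12 to 0.21 in the same way, below 0 without C01, C03 or C06, and was -0.0022 with no filter and -0.0081 with limma-voom. That of the downstream start to the third end ranged from -0.0042 (without C01) to 0.24. The downstream start to the fifth end turned to 0.28 at the listing limit. Of the linear differences, 64 values under alternatives kept their call and 6 lost it, all at the first end. All 63 for the circular share kept theirs. A circle with many linear reads at its ends needs more back-splice reads to be listed, so low circles can be missing from the main tables.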
